A study of Mus musculus with 18 samples.

Results

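Fatty acid oxidation in a brown adipocyte is shared by mitochondria and peroxisomes, and its genes were followed here in brown adipocytes with ABHD5, a protein of lipolysis, knocked down or re-expressed. The genes were chosen by name. The list held 36 genes of the carnitine shuttle, the β-oxidation enzymes of both organelles, the electron transfer flavoproteins and the peroxins, and 35 of them had a row among the 17672 genes of the count table. These were 18 of 19 mitochondrial and all 17 peroxisomal genes listed, and all 35 passed the filter on low counts that left 10178 genes for testing. Cpt1b was not analysed here.

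The cells were a mouse brown preadipocyte line, immortalised and then differentiated in culture, in which a lentiviral shRNA kept Abhd5 knocked down in every group. ABHD5 is the protein that activates ATGL, the lipase that takes the first fatty acid from stored triglyceride. The same cells carried an ABHD5 construct that the shRNA does not recognise, tagged with mCherry and driven by doxycycline (Dox). Cells of 3 groups received no Dox, and cells of the other 3 groups received Dox at 1 µg/ml, over 24 h in one description and 24 to 48 h in another. Within each state the cells were stimulated for 3 h with vehicle (DMSO), with 10 nM isoproterenol (ISO), an agonist of β-adrenergic receptors, or with 20 µM SR-3420, a ligand of ABHD5 that frees it to activate ATGL. All groups were differentiated with 0.125 mM indomethacin at the start. Each of the 6 groups had 3 replicates, described by the study as independent experiments, which gave 18 libraries. Dox came only together with the construct, so effects of the drug and of ABHD5 cannot be told apart.

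Long-chain fatty acids are joined to coenzyme A and pass into mitochondria as carnitine esters, where each turn of β-oxidation dehydrogenates, hydrates, dehydrogenates again and cleaves the chain. The first of these steps passes its electrons through the electron transfer flavoprotein to the respiratory chain. Peroxisomes shorten very long and branched chains with enzymes of their own, which are imported by peroxins, and hand the products on as carnitine esters. Many of these genes are known targets of the fatty acid activated nuclear receptors of the PPAR family, and brown fat is a tissue with a high capacity for the pathway.

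The length over which the table counted a gene was within 10% of its intron length at 72.5% of genes and of its exon length at 2.27%, and at 23 and 0 of the 35 members. Among the other 12 members were Echs1, Acad11, Pex2 and Pex13. The methods name a count over genes, so whether the values below stand for spliced or unspliced RNA was not settled. Normalised values are CPM, the count of a gene divided by the library total scaled for composition, per 1e6 counts. Library totals ranged from 689910 to 1956565 counts, and the members together took 0.482% to 1.07% of them. SR-3420 with Dox replicate 1 stood apart, since 10 genes held 35.6% of its counts against 16.3% to 26.5% in the other libraries. Counts of Abhd5 were 47.2 to 55.8 CPM in DMSO without Dox and 484 to 656 CPM in DMSO with Dox, in the direction of the labels. How much of the rescue construct the counted bases of Abhd5 hold is not given by the table. The adipocyte markers summed to 2850 to 3440 CPM in DMSO without Dox and 3350 to 3860 CPM in DMSO with Dox. They reached 3830 to 4010 CPM with ISO and 4090 to 4290 CPM with SR-3420 without Dox, and 5910 to 6010 CPM and 4550 to 5910 CPM with Dox, so this list moved with the stimulations, and its part in the results below was not tested. All 8 adipocyte markers in the table were detected in every group. The brown markers summed to 102 to 198 CPM in DMSO, 210 to 424 CPM with ISO and 161 to 241 CPM with SR-3420 without Dox. With Dox the sums were 177 to 225, 417 to 812 and 205 to 443 CPM in the same order. Of the 8 brown markers, 1 or 2 had no counts in a given group. Among them, Dio2 had no counts in any library and Ucp1 lay at 23.8 to 102 CPM after ISO without Dox, at 135 to 299 CPM after ISO with Dox and at no more than 4.39 CPM in any other library. Preadipocyte markers summed to 698 to 927 CPM in DMSO without Dox and 774 to 1180 CPM in DMSO with Dox, and to 551 to 677 and 509 to 782 CPM after ISO. Myocyte markers summed to at most 39.2 CPM and macrophage markers to at most 21.5 CPM. In bulk RNA, fewer cells of a type and less RNA per cell cannot be told apart.

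A pair of sequence elements was looked up around the starts of the members on mm9, because the PPAR and cAMP pathways are those that fatty acids and ISO are known to feed. The first was the DR1 element bound by PPAR and RXR, searched on both strands as AGGTCA, any base and AGGTCA again, with at most 1 mismatch, from 2000 bases before to 2000 bases after each start. It was present at 7 of 35 members (20%) and in 1326 of 17654 windows of all genes (7.51%). In the shorter window of 250 bases before to 50 bases after the start, used below, the exact element was at 0 of 35 members and 0.0623% of all starts. With at most 2 mismatches it was there at 2 members, Echs1 and Etfa (5.71%), and at 3.38% of starts. The sites are printed in the direction of the gene with the element in capitals, and they are shown because the group holds Acaa1b, the member with the highest fold change.
Acaa1b, position -955, chr9:119067154-119067166: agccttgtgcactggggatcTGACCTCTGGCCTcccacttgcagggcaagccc
Cpt2, position -1657, chr4:107597839-107597851: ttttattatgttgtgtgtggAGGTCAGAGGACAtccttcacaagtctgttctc
Acadvl, position 68, chr11:69828850-69828862: aagagaagAGGTCAGTGGTCAagacttcg
Etfdh, position 374, chr3:79432303-79432315: gctaaactAGGGCAAAGGTCAatgctgtc
Etfdh, position 460, chr3:79432217-79432229: tatcatctAGGTTAAAGGTCAtgagaaga
Acads, position 440, chr5:115568903-115568915: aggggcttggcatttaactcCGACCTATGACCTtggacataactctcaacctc
Hadh, position 718, chr3:130974289-130974301: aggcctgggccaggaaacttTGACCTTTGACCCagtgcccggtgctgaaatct
Acad11, position 1054, chr9:103967087-103967099: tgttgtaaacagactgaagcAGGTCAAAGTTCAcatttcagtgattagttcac
Positions count from 0 at the start of the gene in the table. The sites of Acaa1b and Cpt2 lay between annotated genes, those of Acads, Hadh and Acad11 in introns, and those of Acadvl and Etfdh in annotated exons. The element was thus found both at members that rose after stimulation and at Acads, Hadh and Acad11, which were called in no contrast between a stimulus and DMSO.

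The second was the cAMP response element, searched on both strands from 250 bases before to 50 bases after each start. Its core TGACGT was present at 3 of 35 members (8.57%) and at 9.66% of 17669 starts, and the full TGACGTCA at 1 member, Pex13, and at 2.66% of starts. The 3 members are shown with the element in capitals.
Crat, position -44, chr2:30271307-30271312: ccattcctagagTGACGTtcaaggacacca
Ehhadh, position -179, chr16:21788081-21788086: tgaacatgtgatTGACGTtggtggtgtgac
Pex13, position -31, chr11:23565959-23565966: acgccttggccTGACGTCAggcgtgggcgg
These letters are a description of the sequence and do not show that a factor was bound.

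The members differed widely in level in DMSO without Dox, compared here as CPM per kilobase counted, the only scale on which genes are set against each other. Pex11a, a membrane protein of peroxisome division, was highest at 58.0 ± 6.83 CPM per kb (SD, n = 3). Acadvl, the very long chain acyl-CoA dehydrogenase, followed at 55.0 ± 5.49 CPM per kb and did not differ from it beyond the spread of the replicates. Acaa1b, a peroxisomal thiolase, was next at 30 ± 3.16 CPM per kb. At the other end, 6 members lay below 1 CPM per kb, from Acad10 at 0.949 ± 0.454 down to Abcd2 at 0.429 ± 0.275 CPM per kb, and their neighbours in this order did not differ beyond the spread. Cpt1a, the carnitine palmitoyltransferase of the outer membrane, was among them at 0.536 ± 0.0839 CPM per kb. This order rests on the counted lengths, which were 2012 bases for Acadvl and 4069 bases for Pex11a against 52175 bases for Cpt1a. How well these lengths fit the RNA that was counted, spliced or unspliced, was not tested. The median member stood at 5.17 CPM per kb for the mitochondrial and 7.71 CPM per kb for the peroxisomal genes. After ISO with Dox these medians were 8.83 and 9.18 CPM per kb, and Acaa1b had become the highest member at 283 CPM per kb.

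**Figure D1:**
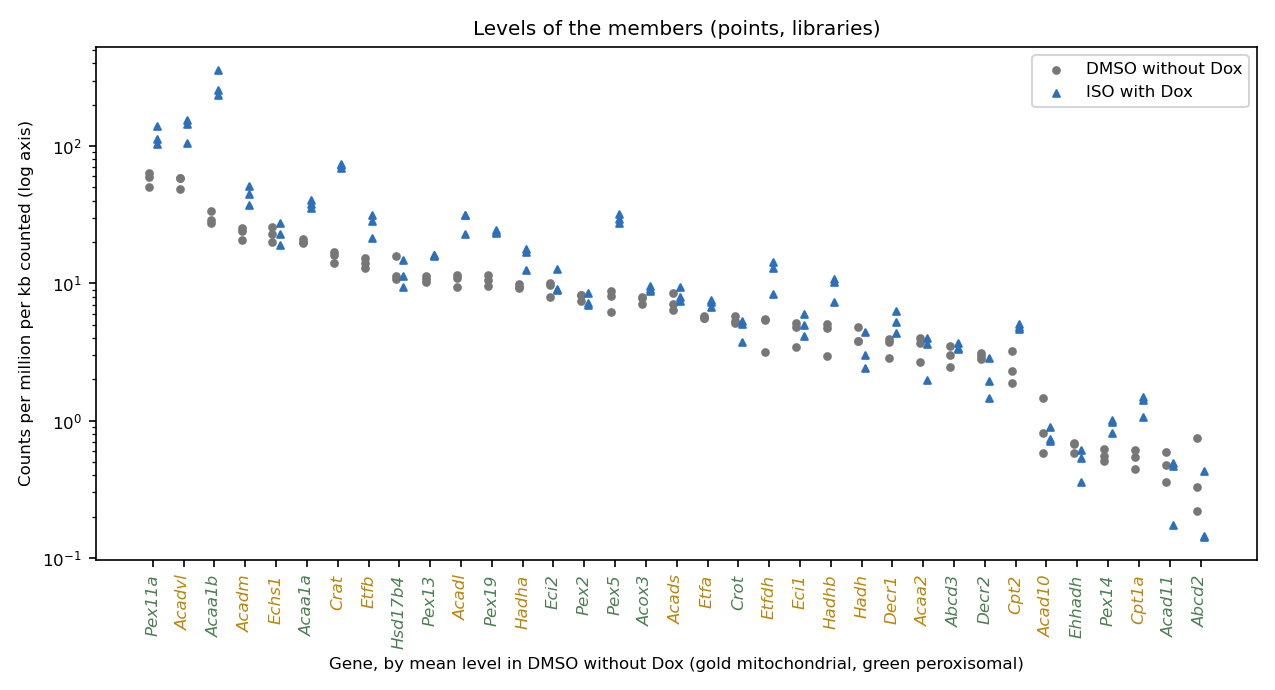
Level in CPM per kilobase counted (log axis) of the 35 members, ordered by their mean in DMSO without Dox, with 1 point per library for DMSO without Dox (grey circles) and ISO with Dox (blue triangles). Acaa1b stood at 30 CPM per kb in DMSO without Dox and at 283 CPM per kb after ISO with Dox, while Ehhadh, Acad11 and Abcd2 stayed below 1 CPM per kb in both groups.

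The response of the module was assessed as the number of members with an adjusted p of 0.05 or less (edgeR quasi-likelihood test over all 10178 genes) in each contrast. ISO without Dox raised 5 members and lowered 3, where 14.5% of all genes tested were higher and 13.5% lower, and 5 members were called in place of these 8 without ISO without Dox replicate 1. ISO with Dox raised 19 members, against 16.4% of all genes, and lowered 2, against 16.1%. In either direction this was 28.0% of all genes without Dox and 32.5% with Dox. SR-3420 raised 3 members without Dox, against 0.698% of all genes, and none was lower, against 0.0688%, with 16 of 35 members (45.7%) and 893 of all genes (8.77%) at an unadjusted p below 0.05. With Dox it raised 12 members and lowered 1, where 6.53% of all genes were higher and 3.37% lower, or 9.90% in either direction, and 11 members were called in place of 13 without SR-3420 with Dox replicate 1, the library that stood apart. With the replicate number as a block, 14 members were called in place of 8 for ISO without Dox, 23 in place of 21 for ISO with Dox, 7 in place of 3 for SR-3420 without Dox and 17 in place of 13 for SR-3420 with Dox. Over all genes the block gave 3504 calls in place of 2846, 4020 in place of 3309, 238 in place of 78 and 1568 in place of 1008 in the same order. Of the 35 members, 24 were called in at least 1 of these 4 contrasts, 2 in all 4 (Crat and Pex11a), and 11 in none. Of all genes tested, 45.5% were called in at least 1 of them, 0.295% in all 4 and 54.5% in none. With a log2 fold change of at least 1 required as well, ISO without Dox raised 3 members (5.81% of all genes) and lowered 2 (5.08%), and ISO with Dox raised 5 (6.22%) and lowered 2 (6.89%). By the same rule SR-3420 raised 1 member without Dox (0.236% of all genes, with 0.0295% lower) and 2 with Dox (2.10%, with 1.00% lower). The contrasts within a Dox state share their DMSO libraries and are not independent.

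**Figure D2:**
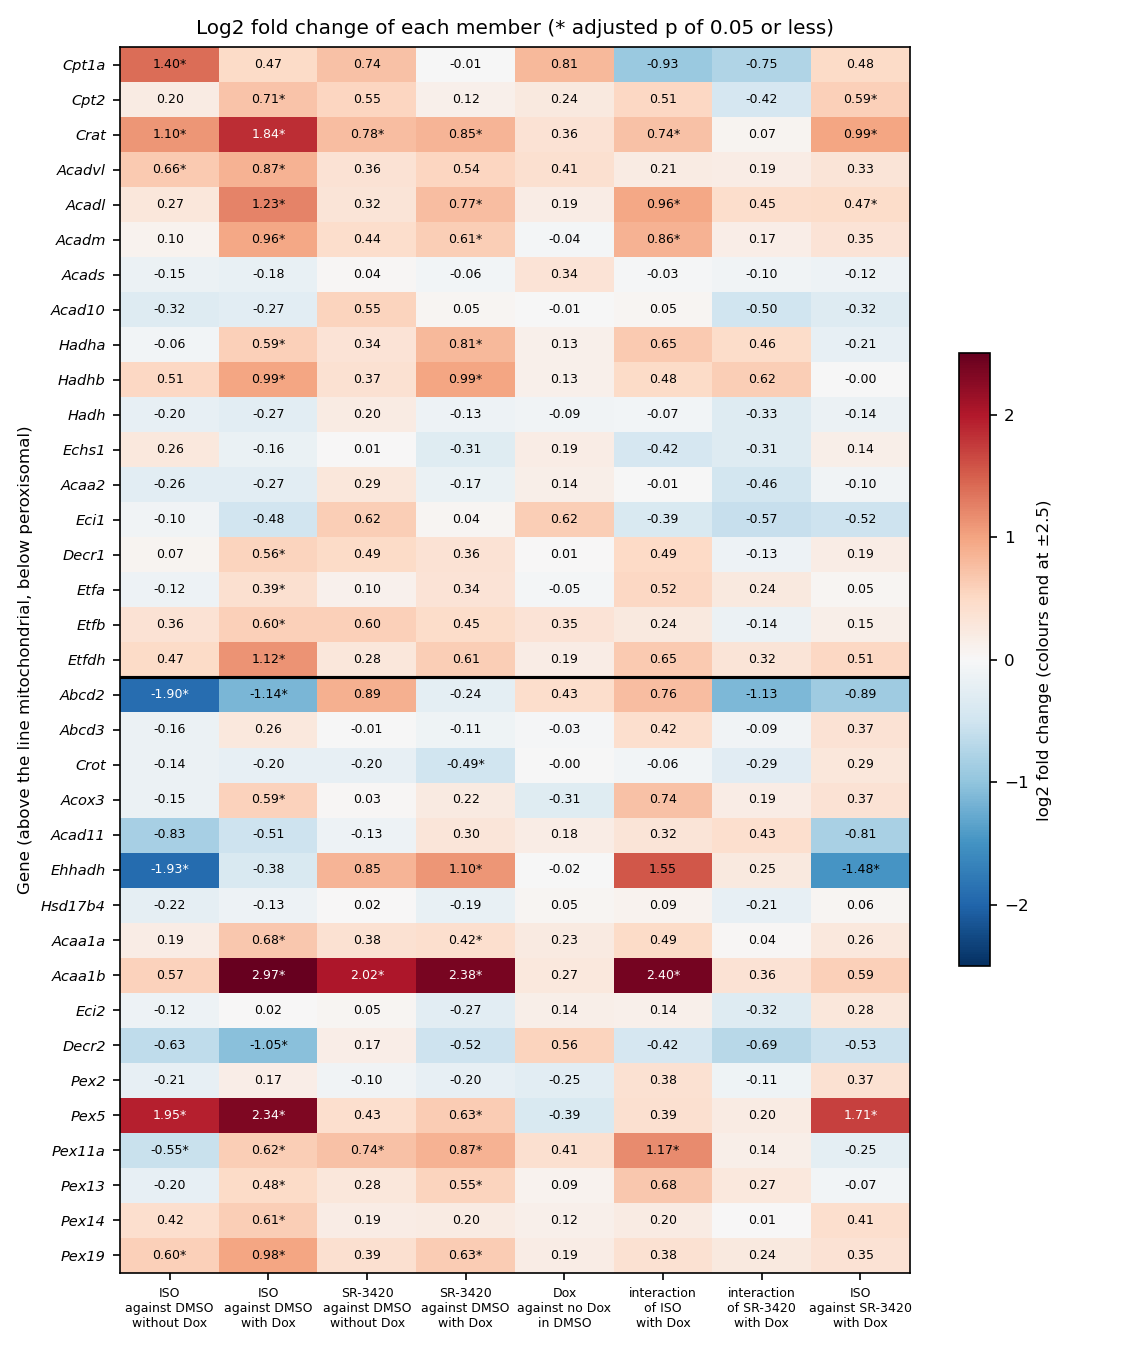
Log2 fold change of each member (rows, mitochondrial above the line, peroxisomal below) in 8 contrasts (columns), with colours that end at 2.5 in either direction and an asterisk at an adjusted p of 0.05 or less. ISO with Dox carried 21 asterisks, ISO without Dox 8, SR-3420 with Dox 13 and SR-3420 without Dox 3.

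The mitochondrial and peroxisomal genes were described apart. Among the 18 mitochondrial members, ISO raised 3 without Dox (median log2 fold change 0.15 over all 18) and 11 with Dox (median 0.58), and lowered none in either state. Among the 17 peroxisomal members, it raised 2 and lowered 3 without Dox (median -0.16), and raised 8 and lowered 2 with Dox (median 0.26). The median of all genes tested was -0.0105 without Dox and -0.0195 with Dox. Of all genes, ISO raised 14.5% and lowered 13.5% without Dox, and raised 16.4% and lowered 16.1% with Dox. SR-3420 without Dox gave a positive log2 fold change at 18 of 18 mitochondrial members (median 0.36) and at 13 of 17 peroxisomal members (median 0.19), but only Crat among the former and Acaa1b and Pex11a among the latter passed the test. With the replicate block Acadm, Eci1, Etfb and Pex5 passed too. Of all genes, 5039 of 10178 had a positive log2 fold change in this contrast (median -0.0034), and 0.698% were called higher and 0.0688% lower without the block. SR-3420 with Dox raised 5 mitochondrial members (median 0.35) and 7 peroxisomal members (median 0.22) and lowered 1 peroxisomal member. It raised 6.53% of all genes and lowered 3.37% (median -0.015). After ISO with Dox, 5 of 6 peroxins were higher and none lower, and of the other 11 peroxisomal genes 3 were higher and 2 lower. The shares of all genes in that contrast were 16.4% higher and 16.1% lower. Whether the organelles or these subsets differ was not tested.

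**Figure D3:**
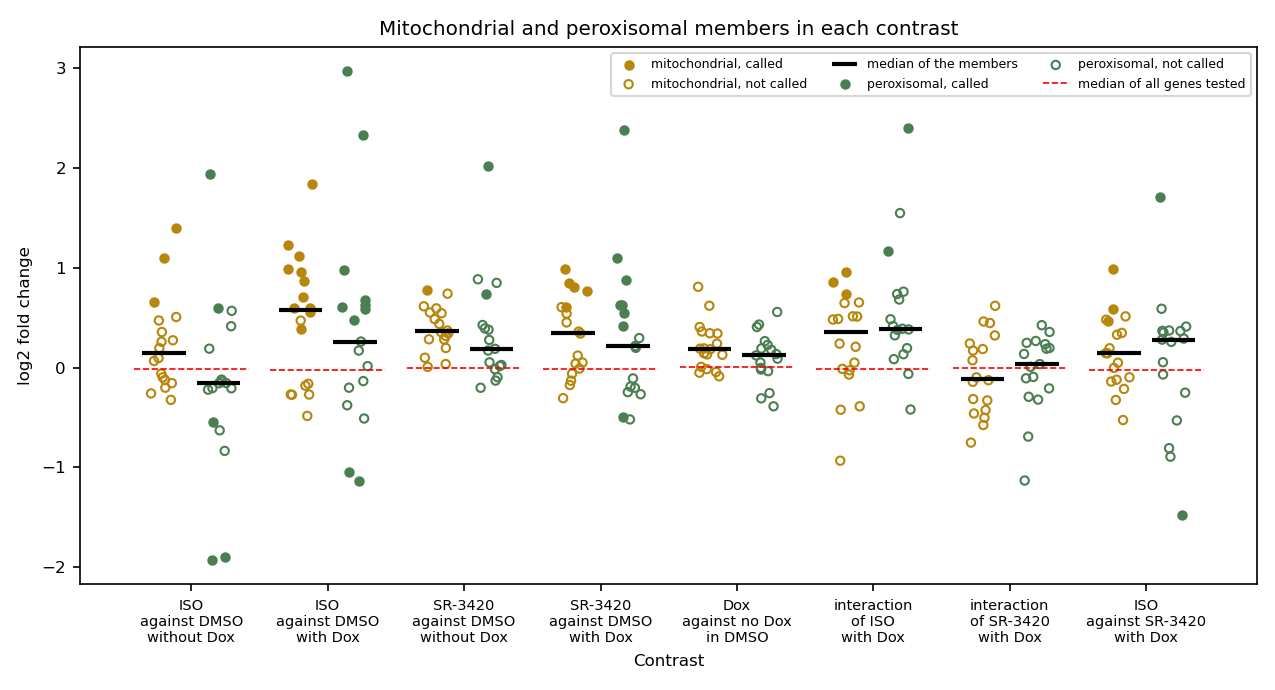
Log2 fold change (vertical axis) of the mitochondrial (gold) and peroxisomal (green) members in 8 contrasts, with 1 circle per gene, filled at an adjusted p of 0.05 or less. Black bars are medians of the members and red dashed lines medians of all genes tested. After ISO with Dox the mitochondrial median was 0.58 and the peroxisomal median 0.26, while the peroxisomal genes spread from -1.14 to 2.97.

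The carnitine shuttle genes listed as mitochondrial were described first. Crat, carnitine acetyltransferase, which exchanges short acyl groups between coenzyme A and carnitine, gave 153, 182 and 174 CPM in DMSO without Dox, 377, 349 and 366 CPM with ISO, and 266, 301 and 305 CPM with SR-3420. With Dox it gave 189, 246 and 224 CPM in DMSO, 791, 750 and 801 CPM with ISO, and 362, 470 and 349 CPM with SR-3420. The groups of each stimulus and its DMSO control did not overlap in either Dox state, and ISO with Dox lay above all other libraries. Crat rose 2.15-fold with ISO (log2 1.1, SE 0.14, adjusted p = 9.15e-07) and 1.71-fold with SR-3420 (log2 0.78, SE 0.14, adjusted p = 0.00261) without Dox. With Dox it rose 3.58-fold with ISO (log2 1.84, SE 0.14, adjusted p = 1.65e-11) and 1.81-fold with SR-3420 (log2 0.85, SE 0.14, adjusted p = 8.19e-05). The SR-3420 call without Dox was lost when DMSO without Dox replicate 1 was left out (log2 0.70, adjusted p = 0.0711). Crat carries the CRE core printed above, and 11% of its span overlaps other annotated genes, among them Dolpp1 on the other strand. Whether reads were assigned by strand is not given in the sources used here, which leaves the values of overlapping genes uncertain.

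Cpt1a, whose enzyme controls the entry of long chains, rose with ISO in the knockdown state. It gave 32, 28.6 and 23.3 CPM in DMSO, 73.5, 83.3 and 67.6 CPM with ISO and 46.4, 52.3 and 41.6 CPM with SR-3420 without Dox. With Dox the values were 57.3, 34.4 and 52.8 CPM, 73.4, 55.1 and 78 CPM, and 45.7, 33.8 and 67.9 CPM in the same order. ISO was thus at much the same level in both states, while DMSO was higher in all 3 libraries with Dox than in those without. Cpt1a rose 2.65-fold with ISO without Dox (log2 1.40, SE 0.24, adjusted p = 4.68e-05). With Dox its log2 fold change of 0.47 (SE 0.21) had an adjusted p of 0.0793, which became 0.0391 with the replicate number as a block, 0.0486 without DMSO with Dox replicate 1 and 0.0278 without ISO with Dox replicate 2. The difference between its ISO responses with and without Dox was -0.93 (SE 0.32, adjusted p = 0.122), and -0.94 with the block (adjusted p = 0.0425).

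Cpt2, which returns the acyl group to coenzyme A inside the mitochondrion, gave 52.5, 37.5 and 32.6 CPM in DMSO with Dox, 66.7, 73.3 and 69.3 CPM with ISO and 47.5, 52.7 and 38.9 CPM with SR-3420. Only the ISO libraries lay apart from DMSO. Cpt2 rose with ISO with Dox (log2 0.71, SE 0.19, adjusted p = 0.00478) and was called in no other contrast with DMSO.

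The acyl-CoA dehydrogenases, which open each turn of the cycle for chains of different length, were split between 3 that rose and 2 that were not called. Acadl, the long chain enzyme, gave 348, 286 and 337 CPM in DMSO, 397, 335 and 444 CPM with ISO and 419, 358 and 437 CPM with SR-3420 without Dox. In cells with Dox the values were 435, 287 and 385 CPM, 967, 692 and 960 CPM, and 667, 549 and 676 CPM. Without Dox the ISO libraries overlapped DMSO and those of SR-3420 lay just above it, and with Dox both stimuli lay above DMSO. Acadl rose 2.35-fold with ISO with Dox (log2 1.23, SE 0.16, adjusted p = 7.71e-07) and 1.70-fold with SR-3420 (log2 0.77, SE 0.16, adjusted p = 0.00181), against a log2 fold change of 0.27 (SE 0.17, adjusted p = 0.224) with ISO without Dox. With the replicate block this last value was 0.28 (adjusted p = 0.0461).

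Acadm, the medium chain enzyme, followed the same course, with 459, 396 and 503 CPM in DMSO, 887, 740 and 1020 CPM with ISO and 690, 601 and 784 CPM with SR-3420 with Dox. Its DMSO and ISO libraries without Dox overlapped, at 408 to 506 and 447 to 574 CPM. It rose with ISO with Dox (log2 0.96, SE 0.15, adjusted p = 1.62e-05) and with SR-3420 with Dox (log2 0.61, SE 0.15, adjusted p = 0.00872). The second call was lost without DMSO with Dox replicate 2 (log2 0.53, adjusted p = 0.0557) or SR-3420 with Dox replicate 3 (log2 0.52, adjusted p = 0.0609). With SR-3420 without Dox, Acadm was at a log2 fold change of 0.44 (adjusted p = 0.294), or 0.0104 with the replicate block.

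Acadvl, which carries a DR1 in an exon near its start, gave 117, 97.9 and 117 CPM in DMSO without Dox and 155, 143 and 227 CPM with ISO. With Dox it gave 157, 119 and 166 CPM in DMSO, 291, 214 and 309 CPM with ISO and 241, 178 and 227 CPM with SR-3420. In each of these contrasts the stimulated libraries lay above DMSO. Acadvl rose with ISO without Dox (log2 0.66, SE 0.19, adjusted p = 0.0107) and with Dox (log2 0.87, SE 0.18, adjusted p = 0.000412). The first call was lost without ISO without Dox replicate 3 (log2 0.43, adjusted p = 0.132). With SR-3420 with Dox it was at 0.54 (adjusted p = 0.0556), and at 0.55 (adjusted p = 0.000389) with the replicate block. Dvl2 and other annotated genes cover 40.4% of its span. Acads, the short chain enzyme (DR1 site in an intron), and Acad10 were not called in any contrast, with log2 fold changes after ISO with Dox of -0.18 and -0.27.

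The trifunctional protein carries out the last 3 steps of the cycle for long chains, and its α and β subunits are made from Hadha and Hadhb, whose starts lie head to head 272 bases apart at chr5:30481521-30481792. Hadha gave 283, 267 and 269 CPM in DMSO, 244, 233 and 306 CPM with ISO and 374, 310 and 356 CPM with SR-3420 without Dox. The cells with Dox gave 328, 256 and 309 CPM, 507, 363 and 484 CPM, and 622, 424 and 521 CPM. Hadhb gave 121, 78.1 and 126 CPM in DMSO, 249, 169 and 235 CPM with ISO and 258, 177 and 217 CPM with SR-3420 with Dox. In both genes the libraries of either stimulus with Dox lay above those of DMSO, and replicate 2 was the lowest of its group in all 3 groups.

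Hadha rose 1.51-fold with ISO (log2 0.59, SE 0.15, adjusted p = 0.00354) and 1.75-fold with SR-3420 (log2 0.81, SE 0.15, adjusted p = 0.00059) with Dox. Hadhb rose 1.99-fold with ISO (log2 0.99, SE 0.19, adjusted p = 0.000182) and also 1.99-fold with SR-3420 (log2 0.99, SE 0.19, adjusted p = 0.000664). Without Dox neither gene was called with either stimulus in the main fit, and Hadhb after ISO was at a log2 fold change of 0.51 (adjusted p = 0.0607, or 0.0255 when only these groups were fitted). Hadhb was called there with the replicate block (log2 0.53, adjusted p = 0.00114) and without the filter on low counts (0.0122). It was also called with libraries thinned to the smallest total (0.0279) and without ISO without Dox replicate 2 (0.0345). Hadh (DR1 site in an intron), Echs1 and Acaa2, the separate matrix enzymes that act on medium and short chains, were called in none of the 4 contrasts, with log2 fold changes between -0.31 and 0.29. Whether their responses differed from those of Hadha and Hadhb was not tested.

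Unsaturated chains need auxiliary enzymes. Decr1, the mitochondrial dienoyl-CoA reductase, gave 96.3, 90.6 and 80.9 CPM in DMSO with Dox and 132, 109 and 159 CPM with ISO, groups that did not overlap, and rose with ISO with Dox (log2 0.56, SE 0.17, adjusted p = 0.0107). This call was lost without ISO with Dox replicate 3 (log2 0.44, adjusted p = 0.0726). Eci1, an enoyl-CoA isomerase, was not called in these contrasts. After ISO with Dox it was lower with the replicate block (log2 -0.48, adjusted p = 0.0163), library totals (-0.62, 0.0259), upper-quartile scaling (-0.60, 0.0362) or libraries thinned to the smallest total (-0.57, 0.0499). With SR-3420 without Dox it was higher under the block (log2 0.62, adjusted p = 0.0289).

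The electron transfer branch rose as a whole after ISO with Dox. Etfdh, the oxidoreductase that passes electrons to ubiquinone and that holds a pair of DR1 sites, gave 112, 61.4 and 94.4 CPM in DMSO with Dox, 219, 140 and 241 CPM with ISO and 143, 137 and 138 CPM with SR-3420. Etfb, the β subunit of the flavoprotein, gave 253, 186 and 243 CPM, 404, 273 and 363 CPM, and 320, 295 and 324 CPM. Etfa, its α subunit, gave 259, 253 and 260 CPM, 345, 314 and 354 CPM, and 364, 275 and 339 CPM. In all 3 genes the ISO libraries lay above DMSO. Etfdh rose 2.18-fold (log2 1.12, SE 0.20, adjusted p = 8.11e-05), Etfb 1.52-fold (log2 0.60, SE 0.16, adjusted p = 0.00545) and Etfa 1.31-fold (log2 0.39, SE 0.13, adjusted p = 0.0224). The Etfa call was lost without DMSO with Dox replicate 1 (adjusted p = 0.0543) or 2 (0.0574), or ISO with Dox replicate 1 (0.0597) or 3 (0.0626), with upper-quartile scaling (log2 0.28, adjusted p = 0.108) and with library totals as the scale (log2 0.26, adjusted p = 0.208). After ISO without Dox the main fit called none of these 3 genes. The replicate block called Etfdh (log2 0.49, adjusted p = 0.0108) and Etfb (log2 0.36, adjusted p = 0.0163) there. Etfdh was also called without the filter on low counts (0.0276) and with thinned libraries (0.0414), and Etfb without ISO without Dox replicate 2 (0.0376).

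With SR-3420 and Dox these 3 genes also lay above DMSO in every library but missed the threshold, at log2 fold changes of 0.61 for Etfdh (adjusted p = 0.0607), 0.45 for Etfb (adjusted p = 0.0795) and 0.34 for Etfa (adjusted p = 0.103). With the replicate block their adjusted p values were 0.00118, 0.0022 and 0.0249, and 17 members in place of 13 were called in that contrast. In SR-3420 without Dox the block raised the count from 3 to 7 members, of which Etfb (log2 0.60, adjusted p = 0.000871) had the smallest p of those gained. Over all genes the block raised the calls in that contrast from 78 to 238.

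On the peroxisomal side, the largest change of any member was that of Acaa1b, the thiolase that closes the peroxisomal cycle, with the DR1 site printed first above. It gave 203, 214 and 248 CPM in DMSO, 376, 317 and 294 CPM with ISO and 1100, 773 and 816 CPM with SR-3420 without Dox. With Dox it gave 394, 195 and 197 CPM in DMSO, 2630, 1890 and 1740 CPM with ISO and 1610, 1520 and 1020 CPM with SR-3420. SR-3420 lay above DMSO in both states, whereas ISO reached that level only with Dox, and DMSO with Dox replicate 1 was the high library of its group. Acaa1b rose 7.83-fold with ISO with Dox (log2 2.97, SE 0.24, adjusted p = 5.81e-11), 4.06-fold with SR-3420 without Dox (log2 2.02, SE 0.23, adjusted p = 3.64e-06) and 5.20-fold with SR-3420 with Dox (log2 2.38, SE 0.23, adjusted p = 2.41e-08). With ISO without Dox, where the groups did not overlap either, its log2 fold change was 0.57 (SE 0.23, adjusted p = 0.0668). That p was 0.00414 when only these groups were fitted, 0.0062 without the filter on low counts, 0.0068 with the replicate block and 0.0347 with all libraries thinned to the smallest total. It made up 3.57% to 6.98% of all member counts in DMSO and 17.1% to 24.3% after ISO with Dox. Without Acaa1b, the members took 0.485% to 0.558% of library counts in DMSO with Dox and 0.69% to 0.809% after ISO with Dox.

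Acaa1a, its neighbour and near copy on chromosome 9, moved less. It gave 120, 130 and 120 CPM in DMSO, 186, 210 and 195 CPM with ISO and 161, 189 and 145 CPM with SR-3420 with Dox. It rose with ISO with Dox (log2 0.68, SE 0.13, adjusted p = 0.000188), and with SR-3420 with Dox it was at 0.42 (SE 0.13, adjusted p = 0.0411). The latter call was lost without DMSO with Dox replicate 1 (adjusted p = 0.134), 2 (0.0589) or 3 (0.114), without SR-3420 with Dox replicate 1 (0.0877) or 2 (0.201), and with DESeq2 (0.0673). Of the 50-base windows of Acaa1b, 12.1% occur in Acaa1a too, so reads of this pair may have been split between them.

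Ehhadh is the bifunctional enzyme of the middle steps and carries a CRE core printed above. It fell with ISO in one state and rose with SR-3420 in the other. It gave 16, 13.6 and 16.2 CPM in DMSO, 3.24, 4.96 and 3.75 CPM with ISO and 33.1, 28.5 and 21.2 CPM with SR-3420 without Dox. In the cells with Dox there were 11.6, 17.7 and 19.1 CPM, 8.34, 12.6 and 14.4 CPM, and 32.5, 27.8 and 37.9 CPM. ISO without Dox lay below DMSO and SR-3420 above it in both states, while ISO with Dox overlapped DMSO. Ehhadh fell to 0.263 of its DMSO level with ISO without Dox (log2 -1.93, SE 0.40, adjusted p = 0.000641) and rose 2.14-fold with SR-3420 with Dox (log2 1.1, SE 0.27, adjusted p = 0.00631). With SR-3420 without Dox it was at 0.85 (adjusted p = 0.206). The rise was lost without DMSO with Dox replicate 1 (log2 0.83, adjusted p = 0.0948), and counts were low, down to 3 in a library.

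Of the remaining oxidation enzymes, 1 rose, 1 fell and 3 were not called. Acox3, an acyl-CoA oxidase, gave 125, 126 and 110 CPM in DMSO and 173, 190 and 181 CPM with ISO with Dox, which did not overlap, and it rose in this contrast alone (log2 0.59, SE 0.15, adjusted p = 0.00409). A gene annotated on its other strand covers 18.6% of its span. Decr2, the peroxisomal dienoyl-CoA reductase, gave 26, 19.8 and 47.2 CPM in DMSO and 10, 19.7 and 13.5 CPM with ISO with Dox, all below DMSO by a narrow margin, and fell (log2 -1.047, SE 0.29, adjusted p = 0.00682). This call was lost without DMSO with Dox replicate 3, its high library (log2 -0.69, adjusted p = 0.0809), or ISO with Dox replicate 1 (log2 -0.83, adjusted p = 0.0547). Hsd17b4, the multifunctional enzyme, Eci2 and Acad11 (DR1 site in an intron) were called in none of the 4 contrasts. Other annotated genes cover 77.5% of the span of Eci2 and 66.4% of that of Acad11.

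Acyl groups enter peroxisomes through ABC transporters. Abcd2 gave 8.9, 29.9 and 13.2 CPM in DMSO and 1.08, 5.95 and 5.25 CPM with ISO without Dox, and 21.7, 27.1 and 16.9 CPM and 5.84, 17.3 and 5.78 CPM with Dox. The groups lay apart without Dox and overlapped with Dox. Abcd2 fell with ISO without Dox (log2 -1.90, SE 0.54, adjusted p = 0.00855) and with Dox (log2 -1.14, SE 0.41, adjusted p = 0.0313), from as few as 1 count in a library. The first call was lost without DMSO without Dox replicate 2 (adjusted p = 0.0863) or ISO without Dox replicate 1 (0.0507). The second was lost without DMSO with Dox replicate 1 (adjusted p = 0.0749) or 2 (0.0933), or ISO with Dox replicate 1 (0.148) or 3 (0.138), and reached a log2 fold change of -1.87 without ISO with Dox replicate 2. Abcd3 was not called in any contrast.

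Crot, the octanoyltransferase that prepares shortened chains for export, gave 147, 132 and 145 CPM in DMSO and 112, 91.5 and 97.9 CPM with SR-3420 with Dox, which did not overlap. It was the only member that SR-3420 lowered (log2 -0.49, SE 0.14, adjusted p = 0.0232). The call was lost without DMSO with Dox replicate 1 (adjusted p = 0.0942) or 3 (0.0573), or SR-3420 with Dox replicate 2 (0.106) or 3 (0.0795).

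The peroxins build the organelle. Pex5, the receptor that carries enzymes with the common targeting signal into the matrix, gave 122, 132 and 92.3 CPM in DMSO, 527, 414 and 389 CPM with ISO and 163, 151 and 150 CPM with SR-3420 without Dox. With Dox it gave 88.1, 83.3 and 92.1 CPM, 479, 409 and 444 CPM, and 141, 136 and 129 CPM. All 6 ISO libraries lay above all 12 others, at about the same level in both states. Pex5 rose 3.85-fold without Dox (log2 1.95, SE 0.14, adjusted p = 2.75e-11) and 5.05-fold with Dox (log2 2.34, SE 0.15, adjusted p = 4.12e-13). It also rose 1.54-fold with SR-3420 with Dox (log2 0.63, SE 0.15, adjusted p = 0.00665).

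Pex11a turned with the state of the cells. It gave 260, 205 and 242 CPM in DMSO, 139, 162 and 182 CPM with ISO and 420, 382 and 381 CPM with SR-3420 without Dox. The libraries with Dox gave 378, 276 and 282 CPM, 575, 421 and 457 CPM, and 632, 583 and 513 CPM. ISO lay below DMSO without Dox and above it with Dox, while SR-3420 lay above DMSO in both. Pex11a fell with ISO without Dox (log2 -0.55, SE 0.16, adjusted p = 0.0104) and rose with ISO with Dox (log2 0.62, SE 0.15, adjusted p = 0.00167). With SR-3420 it rose without Dox (log2 0.74, SE 0.15, adjusted p = 0.0123) and with Dox (log2 0.87, SE 0.15, adjusted p = 0.000147).

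Of these, the fall with ISO was lost without DMSO without Dox replicate 1 (log2 -0.48, adjusted p = 0.0579) or ISO without Dox replicate 1 (log2 -0.45, adjusted p = 0.0714). The rise of Pex11a with SR-3420 without Dox was lost without DMSO without Dox replicate 2 (adjusted p = 0.0804) or 3 (0.0629), or SR-3420 without Dox replicate 1 (0.0794).

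**Figure D4:**
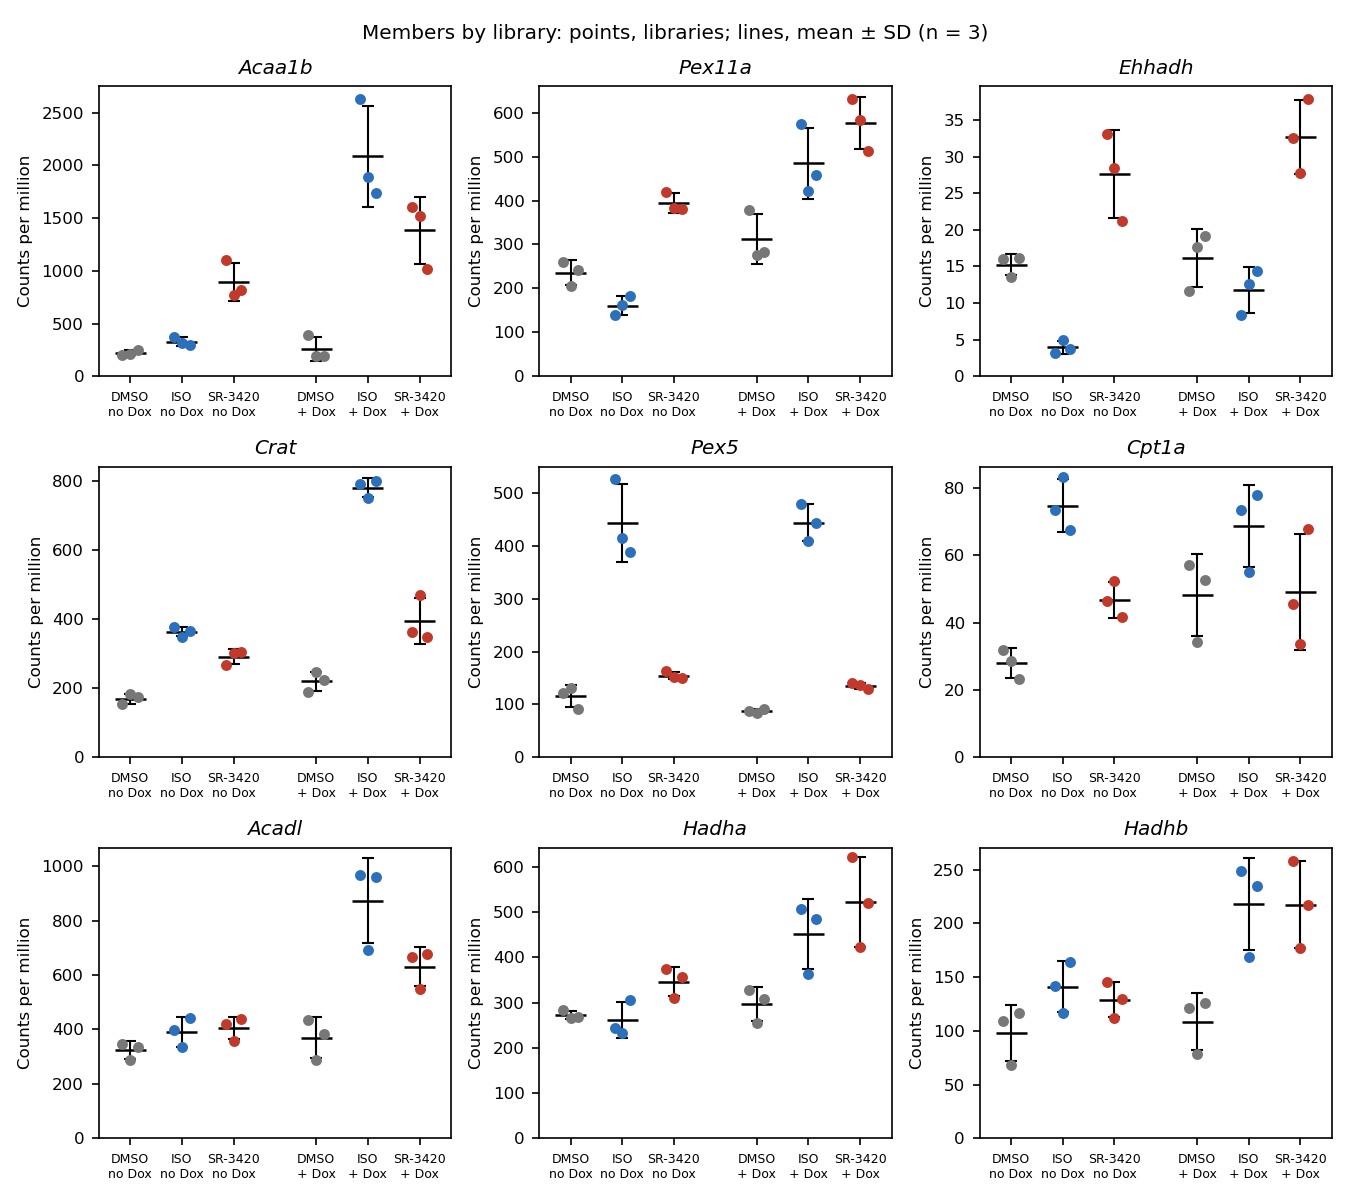
CPM of 9 members in the 6 groups, with 1 point per library and horizontal lines for the mean ± SD (n = 3), on linear axes from 0. Acaa1b and Pex11a were high after SR-3420 in both states and after ISO only with Dox, Pex5 was high after ISO in both states, and Ehhadh was lowest after ISO without Dox (3.24 to 4.96 CPM).

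Pex19, which brings membrane proteins to the peroxisome, gave 75.1, 84.3 and 79.8 CPM in DMSO, 153, 157 and 161 CPM with ISO and 111, 163 and 94.9 CPM with SR-3420 with Dox. Both stimuli lay above DMSO. Pex19 rose with ISO with Dox (log2 0.98, SE 0.17, adjusted p = 6.41e-05), with SR-3420 with Dox (log2 0.63, SE 0.18, adjusted p = 0.0203) and with ISO without Dox (log2 0.60, SE 0.19, adjusted p = 0.0181). The SR-3420 call rested on its high library, replicate 2, without which the log2 fold change was 0.39 (adjusted p = 0.21), and was also lost without DMSO with Dox replicate 1 (0.0993) or 3 (0.0547). The ISO call without Dox was lost without DMSO replicate 1 (0.0901) or 3 (0.0522), or ISO replicate 1 (0.062) or 3 (0.101).

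Pex13, a docking protein of the import pore and the member with a full CRE, gave 95.3, 88.5 and 91 CPM in DMSO, 128, 129 and 128 CPM with ISO and 148, 123 and 132 CPM with SR-3420 with Dox. Both stimuli lay above DMSO, and Pex13 rose with ISO (log2 0.48, SE 0.13, adjusted p = 0.00569) and with SR-3420 (log2 0.55, SE 0.13, adjusted p = 0.00614). The latter was lost without SR-3420 with Dox replicate 1 (log2 0.47, adjusted p = 0.055). Pex14, its partner at the pore, gave 66, 69.7 and 104 CPM in DMSO and 103, 126 and 130 CPM with ISO with Dox, groups that overlapped. It rose with ISO with Dox (log2 0.61, SE 0.17, adjusted p = 0.00706), which was lost without DMSO with Dox replicate 1 (log2 0.46, adjusted p = 0.0786). With the replicate block it was also called for ISO without Dox (log2 0.40, adjusted p = 0.0499). Pex2, a ubiquitin ligase of receptor recycling, was called in no contrast.

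To ask which of these responses differed between the knockdown and the rescued state, the difference of the ISO responses was tested for each member. It was above 0 at the threshold for 5 members, where 1.61% of all genes were, and below 0 for none, where 0.570% were. With the replicate block 10 members were called, all above 0 except Cpt1a, and 600 of all genes in place of 222. At a log2 difference of at least 1 it was called for 2 members, where 0.894% of all genes were above and 0.413% below 0. It was 2.4 for Acaa1b (SE 0.32, adjusted p = 6.13e-05), 1.17 for Pex11a (SE 0.22, adjusted p = 0.00269), 0.96 for Acadl (SE 0.23, adjusted p = 0.0228), 0.86 for Acadm (SE 0.22, adjusted p = 0.0298) and 0.74 for Crat (SE 0.20, adjusted p = 0.0404), all on the log2 scale. It was positive at 27 of 35 members, with a median of 0.39 against -0.0146 over all genes tested. Pex5, whose ISO response was among the largest in both states, had a difference of 0.39 (95% interval -0.0069 to 0.79, adjusted p = 0.386).

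The calls of Acaa1b and Pex11a remained when any 1 library was left out. Acadl lost its call in 6, Acadm in 8 and Crat in 10 of the 12 such fits, with adjusted p values up to 0.0747, 0.0867 and 0.126. The number of members called ranged from 2 to 6 over these fits and fell to 2 without DMSO without Dox replicate 1 or 3, ISO without Dox replicate 2, or ISO with Dox replicate 1 or 3. It fell to 3 without DMSO with Dox replicate 1 or 2, and without replicate 1 of ISO without Dox.

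**Figure D5:**
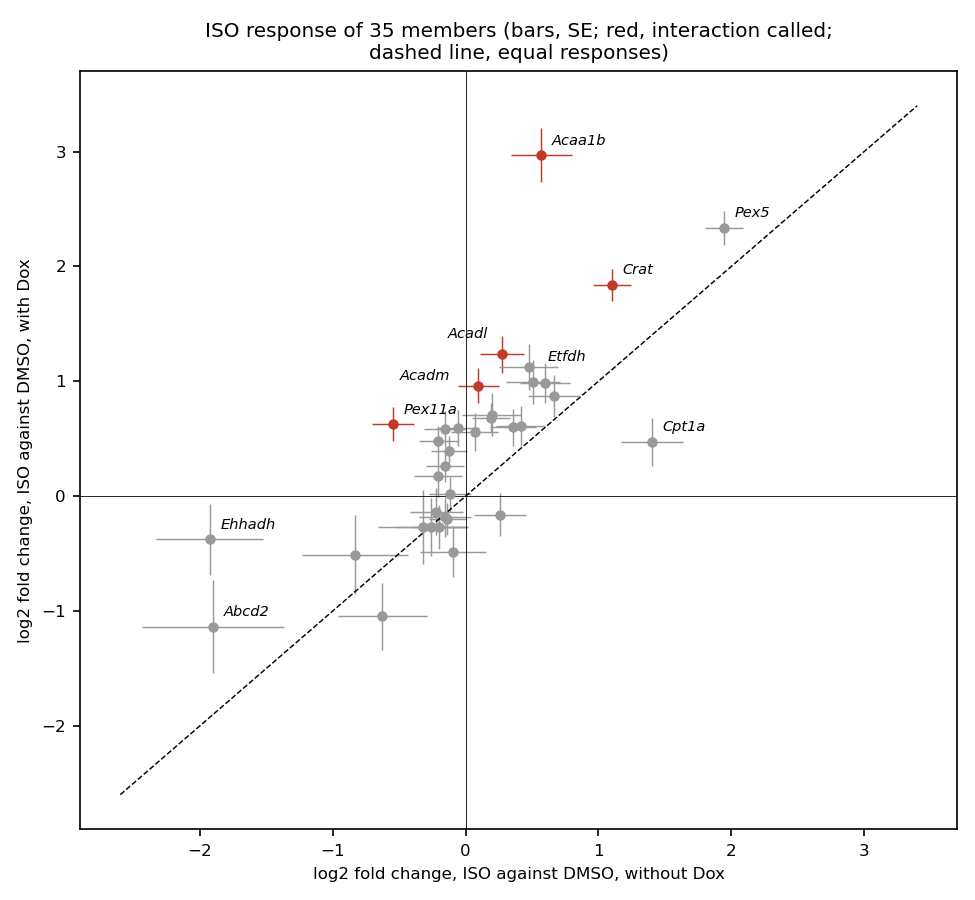
Log2 fold change of ISO against DMSO for the 35 members without Dox (horizontal axis) and with Dox (vertical axis), with bars for the SE, a dashed line where both responses are equal and red points where their difference passed an adjusted p of 0.05. Acaa1b lay highest at 0.57 and 2.97, Pex5 at 1.95 and 2.34 near the line, and Cpt1a below it at 1.40 and 0.47.

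For SR-3420, the change of the response with Dox was called for 0 of 35 members, where 0.757% of all genes were called (0.540% above and 0.216% below 0, or 0.452% and 0.138% at a log2 difference of at least 1), with 4 of 35 members (11.4%) and 1227 of all genes (12.1%) at an unadjusted p below 0.05. DESeq2 and limma-voom also called 0, and the replicate block called Hadhb (0.61, adjusted p = 0.0333) and 339 of all genes in place of 77. For Acaa1b the difference was 0.36 (95% interval -0.26 to 0.98), and for Pex11a it was 0.14 (95% interval -0.28 to 0.55). A p that misses the threshold does not show that the responses were alike.

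Cells with Dox, and so with ABHD5 re-expressed, were compared with cells without it in DMSO. No member was called, where 1.18% of all genes were (1.09% higher and 0.0884% lower, or 0.874% and 0.0197% with a log2 fold change of at least 1), with 6 of 35 members (17.1%) and 1000 of all genes (9.83%) at an unadjusted p below 0.05. DESeq2 and limma-voom called 0 members, and the replicate block called Cpt1a (adjusted p = 0.0384) and Eci1 (0.0283), with 271 of all genes in place of 120. The smallest p belonged to Cpt1a (log2 0.81, SE 0.24, adjusted p = 0.128), followed by Eci1 (log2 0.62, SE 0.23, adjusted p = 0.306) and Pex11a (log2 0.41, SE 0.15, adjusted p = 0.313). The adjusted p of Cpt1a was 0.043 without DMSO with Dox replicate 2 (log2 0.98) and 0.0247 without a filter on low counts. The median over the members was 0.15 against 0.0028 over all genes tested, and it was 0.0567 without DMSO with Dox replicate 1 and 0.0521 with library totals as the scale.

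With Dox, ISO and SR-3420 were compared directly at the doses used, 10 nM and 20 µM, which differ. ISO was above SR-3420 at 4 members, where 10.4% of all genes were, and below it at 1, where 9.43% were, and past a log2 difference of 1 it was above at 1 (3.49%) and below at 1 (3.36%). Pex5 (log2 1.71, SE 0.14, adjusted p = 3.34e-10) and Crat (log2 0.99, SE 0.13, adjusted p = 2.52e-06) were higher with ISO in every library. Cpt2 (log2 0.59, SE 0.19, adjusted p = 0.0303) and Acadl (log2 0.47, SE 0.16, adjusted p = 0.0359) were also higher. Ehhadh was lower with ISO (log2 -1.48, SE 0.28, adjusted p = 0.000301). The difference was 0.59 for Acaa1b (95% interval 0.17 to 1.01, adjusted p = 0.0517). It passed the threshold with the replicate block (adjusted p = 0.00201), without a filter on low counts (0.0018), with limma-voom (0.0325), library totals (0.04) or RLE scaling (0.0489), and without ISO with Dox replicate 2 (0.0426) or 3 (0.038) or SR-3420 with Dox replicate 1 (0.0335). For Hadhb the 95% interval of the difference was -0.36 to 0.36. Cpt2 lost its call without ISO with Dox replicate 2 (adjusted p = 0.0648) or 3 (0.0533) or SR-3420 with Dox replicate 1 (0.0538) or 3 (0.134). Acadl lost it without ISO with Dox replicate 1 (adjusted p = 0.135) or 3 (0.122) or SR-3420 with Dox replicate 2 (0.129) or 3 (0.0532). Without ISO with Dox replicate 2, 9 members were called in place of 5, and with the replicate block 14, where the calls over all genes were 2767 in place of 2016.

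Genes around the pathway were read from companion lists. They are set beside the shares of all genes called, which were 14.5% higher and 13.5% lower with ISO without Dox, 16.4% and 16.1% with ISO with Dox, 0.698% and 0.0688% with SR-3420 without Dox, and 6.53% and 3.37% with SR-3420 with Dox. Of 18 mitochondrial companions tested of 22 listed, ISO raised 2 and lowered 2 without Dox and raised 4 and lowered 2 with Dox, shares near those of all genes. SR-3420 raised 2 without Dox, and raised 4 and lowered 1 with Dox. The largest change was that of Acsl1, an acyl-CoA synthetase of the mitochondrial outer membrane, at log2 fold changes of 0.94 with ISO without Dox, 2.57 with ISO with Dox, 1.36 with SR-3420 without Dox and 1.73 with SR-3420 with Dox, called in all 4. Its ISO responses differed between the states by 1.63 (SE 0.24, adjusted p = 0.00017). Slc25a20, the carnitine-acylcarnitine translocase, rose with Dox with ISO (log2 1.25) and SR-3420 (log2 1.15), and Slc22a5, the carnitine transporter, rose with ISO with Dox (log2 0.72) and with SR-3420 in both states (log2 0.85 and 1.01). Ivd of leucine breakdown fell with ISO in both states (log2 -0.81 and -0.74).

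Of 32 peroxisomal companions tested of 38 listed, ISO raised 8 and lowered 4 without Dox and raised 12 and lowered 5 with Dox, while SR-3420 raised 1 without Dox and raised 6 and lowered 2 with Dox. Scp2, a sterol carrier with a peroxisomal thiolase form, rose with ISO without Dox (log2 1.34) and with Dox (log2 1.94), as did Far1 of ether lipid synthesis (log2 1.15 and 2.03) and the protease Lonp2 (log2 0.93 and 1.22). Pex16 rose with Dox with ISO (log2 1.30) and SR-3420 (log2 1.052).

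Among 11 regulators tested of 13 listed, ISO raised 4 and lowered 1 without Dox and raised 5 and lowered 1 with Dox, and SR-3420 raised 6 with Dox. With SR-3420 without Dox 0 of 11 were called, with 6 at an unadjusted p below 0.05 against 8.77% of all genes. The lowered regulators were Nr1h3 without Dox (log2 -1.14, adjusted p = 4.03e-07) and Rxra with Dox (log2 -0.99, adjusted p = 0.00387). Ppargc1a, the coactivator of mitochondrial genes, rose with ISO without Dox (log2 2.19, SE 0.32) and with Dox (log2 3.28, SE 0.29) and with SR-3420 with Dox (log2 1.14). Ppara lay at 6.25 to 18.3 CPM in DMSO, 18.9 to 97.5 CPM with ISO and 38.8 to 134 CPM with SR-3420 with Dox, and it rose in both contrasts (log2 2.10 and 2.72). Pparg rose with ISO in both states (log2 0.55 and 1.04) and was 1.11 higher on the log2 scale with ISO than with SR-3420 with Dox. No regulator was called in the Dox comparison in DMSO, where 1 of 11 had an unadjusted p below 0.05 against 9.83% of all genes, and among the differences of the ISO responses Nr1h3 was called (1.00, SE 0.19, adjusted p = 0.00322). Nr1h3, the liver X receptor alpha, averaged 187 CPM in DMSO and 83.7 CPM with ISO without Dox, and 197 and 179 CPM with Dox.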

How the data were processed

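RNA-seq libraries of 18 samples were analysed. The authors mapped reads to mm9 with STAR 2.4.2a, kept 1 read per position and length with HOMER and summarised reads per gene with the gene count option of iRNA-seq, and deposited raw counts in 1 table. The counted length was within 10% of the intron length at 72.5% of genes and of the exon length at 2.27%. Strand of counting is not given in the sources used here. No per-sample column lacked a sample (0).

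Counts were scaled by TMM and fitted over all 6 groups with edgeR 4.0.16 (quasi-likelihood test, R 4.3.3) on the 10178 genes that passed its expression filter, with Benjamini-Hochberg adjustment over all of them and a threshold of 0.05. DESeq2 1.42.0 and limma 3.58.1 (voom), other scalings, filters and thresholds, thinning, leaving out each library and a replicate block were alternatives. Scripts were tested on simulated data. Figures were drawn with matplotlib 3.10.9.

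The members and lists were chosen with earlier results of these data known. Values in every library were to be given for at most 10 called members per contrast by smallest p, and those of the other called members were added. Companion genes were named among the 5 with the smallest p per list and contrast. One companion gene is not reported here by name. Library totals of 689910 to 1956565 counts limit precision for members with few counts.

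Replicate numbers come from the sample titles. Deviations from group means of same-numbered libraries correlated at 0.0386 to 0.277, and those of other pairs at -0.209 to 0.0867. Every same-numbered pair was over 0.1 for ISO with Dox (0.165 to 0.262) and SR-3420 without Dox (0.137 to 0.263) and with Dox (0.123 to 0.246), so the blocked values of these contrasts are given beside those without the block, which is the design fixed as main.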

Additional observations from a re-analysis of the deposited data

Results flagged for a closer look

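The ISO responses of 5 members differed between the cells with and without Dox by a test of the difference itself (edgeR, adjusted p of 0.05 or less). The difference, with Dox minus without, was 2.4 on the log2 scale for Acaa1b, 1.17 for Pex11a, 0.96 for Acadl, 0.86 for Acadm and 0.74 for Crat. For Pex11a the responses themselves had opposite signs, and for the other 4 both were above 0. Of all genes, 1.61% had a difference called above 0 and 0.570% below 0. The calls of Acadl, Acadm and Crat were each lost in several fits that left out 1 library, with adjusted p values up to 0.0747, 0.0867 and 0.126. Those of Acadm and Crat were also lost with upper-quartile scaling and with library totals, while Acaa1b and Pex11a kept theirs. Groups of 3 libraries were not tested for outlying samples.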

How the results depend on the processing

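No result changed direction past the threshold under any alternative. Of 55 calls of a member in a contrast, 25 were lost in at least 1 alternative fit at the same threshold and 30 in none of the fits that tested them. Of these 30, 28 were tested in all alternatives, and the 2 others, both of Ehhadh (ISO without Dox and ISO against SR-3420), were not tested with a minimum of 10 counts in every sample. With library totals as the scale 15 were lost, and the median of all genes was as low as -0.207 (SR-3420 with Dox) against -0.015 with TMM. These were Acadvl and Pex19 for ISO without Dox, Decr1, Etfa, Etfb and Pex13 for ISO with Dox, Crat and Pex11a for SR-3420 without Dox, Acaa1a, Acadm, Pex5, Pex13 and Pex19 for SR-3420 with Dox, and Acadm and Crat for the difference of the ISO responses. With library totals, 1 member was called for SR-3420 without Dox, 8 for SR-3420 with Dox and 3 for the difference of the ISO responses, and upper-quartile scaling also gave 3 for the last. Without a filter on low counts, 5 members were called for SR-3420 without Dox and 1 for Dox in DMSO. At an adjusted p of 0.01, the calls were 5 for ISO without Dox, 2 for the difference of the ISO responses and 3 for ISO against SR-3420. A log2 fold change of at least 1 left 5 and 7 for ISO without and with Dox, 1 and 2 for SR-3420 without and with Dox, 2 for the difference of the ISO responses and 2 for ISO against SR-3420. The causes were not tested, beyond the stricter thresholds admitting fewer genes.

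With the replicate block, which lost 0 calls, 7 members were called for SR-3420 without Dox. In the contrasts whose samples share only a number, the block gave 14 for ISO without Dox, 2 for Dox in DMSO, 10 and 1 for the differences of the ISO and SR-3420 responses, and 14 for ISO against SR-3420. Over all genes these counts were 3504 in place of 2846, 271 in place of 120, 600 in place of 222, 339 in place of 77 and 2767 in place of 2016. All 18 libraries correlated best with their own number, a hint from the data and not from the design.

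Leaving out 1 library gave 5 to 10 calls for ISO without Dox, 18 to 22 for ISO with Dox, 2 to 3 for SR-3420 without Dox, 10 to 12 for SR-3420 with Dox, 0 to 1 for Dox in DMSO, 2 to 6 and 0 to 0 for the differences of the ISO and SR-3420 responses, and 4 to 9 for ISO against SR-3420. ISO without Dox fell to 5 without ISO without Dox replicate 1. Of 140 medians over the members compared, 18 moved by more than the spread between replicates and 9 changed sign, 8 of them for the difference of the SR-3420 responses, whose median was 0.0097. The other was ISO without Dox, at -0.096, or 0.0207 without ISO without Dox replicate 1. Few counts limit Abcd2, Ehhadh, Acad11 and Decr2.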
